A study of Mus musculus with 7 samples.

Results

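Genes of glucose handling in the liver were read in mice without C3ar1, which encodes the receptor of the complement peptide C3a, and in wild-type littermates. The set held 37 genes of glycolysis, gluconeogenesis, glycogen, fructose entry and the pentose phosphate pathway, chosen by gene symbol. Of these, 32 had at least 1 named probe on the array, out of 16462 distinct gene symbols. Pfkfb1, Pfkfb3, Gpi1, Eno1 and G6pdx were matched to no probe and were not analysed here. The 32 genes were read by 41 probes, with 25 genes on a single probe and 7 on several, which were averaged.

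The study profiled liver RNA of 3 C3ar1 knockout mice (C3ar1-/-) and 4 wild-type littermates, all on a chow diet, on 2-colour arrays. Each array set 1 mouse against a common pool made from 6 wild-type livers. The mice are numbered as in the labels, wild type 1 to 4 and knockout 2 to 4. Age, sex, strain background, time of collection, fed or fasted state and the deleted part of the gene are not given in the sources used here. Every value below is the log10 ratio of a mouse to the pool, so that 0 means the pool's level. Mouse over pool was assumed as the direction, and 10 as the base of the logarithm. The titles name the pool before the mouse, which does not settle the direction. Neither the direction nor the base is stated in the sources, and with pool over mouse all signs below would be opposite. Folds below are in base 10 unless base 2 is named, and would be smaller in base 2. A ratio to a pool holds no level, so genes cannot be ranked by expression, and the liver label could be checked only on ratios: the means of 12 hepatocyte marker genes lay between -0.0545 and 0.0576 in the wild types and between -0.0167 and 0.0766 in the knockouts.

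The liver stores glucose as glycogen after meals, and between meals it releases glucose from glycogen and from newly made glucose. Glycolysis and gluconeogenesis share most enzymes and part at a few one-way steps, among them phosphofructokinase against fructose bisphosphatase, and pyruvate kinase against the pyruvate carboxylase and PEP carboxykinase pair. Insulin, glucagon, glucocorticoids and the sugar supply control these steps through allosteric effectors, phosphorylation and transcription, and transcripts such as Pck1 and G6pc are known to differ strongly between fed and fasted liver.

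A few facts on the whole table bear on these genes. The test was limma, fitted to 22212 rows (named genes and unnamed probes), and a gene was called at an adjusted p under 0.05. Between the genotypes 1 row was called, the protease inhibitor gene A2ml1, which was lower in the knockouts, so that the share called was 0.0045%. C3ar1 itself read -0.0296, -0.0318, 0.0225 and 0.0264 in wild types 1 to 4 and 0.0042, 0.0337 and 0.0514 in knockouts 2 to 4. It was thus not lower in the knockouts, with a difference of 0.0329 ± 0.0232 (SE). Whether its 1 probe lies in the deleted part or reads above background in liver is not known here. The values therefore check neither the labels nor the direction, and their cause was not tested. The SD over probes was 0.0975 in knockout 2 and 0.0466 to 0.0676 on the other arrays. Knockout 2 was the highest of the 7 mice in 29.1% of all rows and the lowest in 18.6%. The number of arrays limits the precision of every comparison.

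None of the 32 genes passed the test between the genotypes (limma, smallest adjusted p = 0.884), against 0.0045% of all rows. At an unadjusted p under 0.05, 3 of 32 genes (9.38%) were listed by limma, Pfkl and Pck1 above the wild types and Gbe1 below, where all rows gave 4.55%, of which 1.89% higher and 2.66% lower. The knockout values lay clear of all wild-type values in 1 gene, Pfkl (3.12%), and in 5.27% of all rows, 2.71% toward higher values. The knockout mean was the higher in 17 genes and the lower in 15, while it was the higher in 57.2% of all rows. The median difference, knockout minus wild type, was 0.00528 over the 32 genes and 0.00558 over all rows. In 15 of 32 genes the difference was smaller than its own standard error. The median and the split of signs thus lay near those of the whole table, and the share listed rests on few genes. Without knockout 2 it was 1 of 32, where all rows gave 3.5%, and without knockout 4 it was 4 of 32, where all rows gave 4.81%. Without wild type 3 limma listed 3 genes higher and 1 lower, where all rows gave 4.84%.

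**Figure D1:**
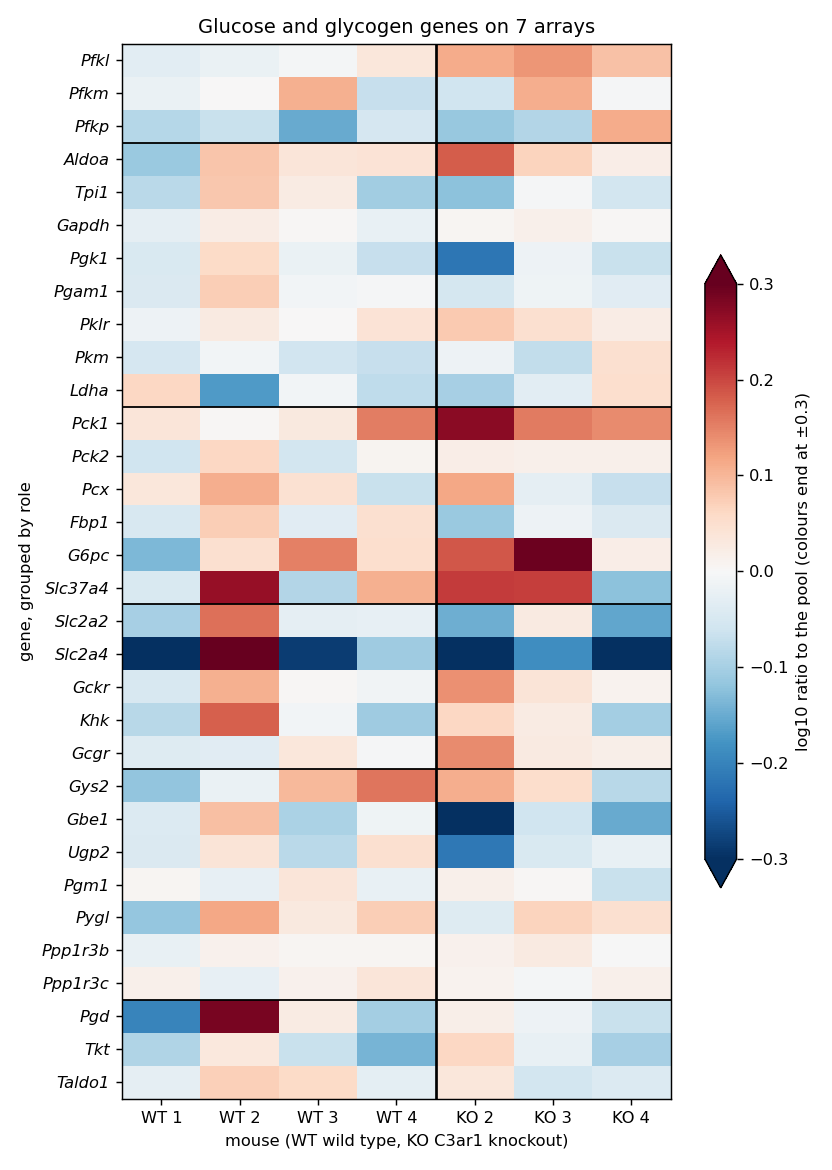
Log10 ratio to the pool of the 32 measured genes (rows, grouped by role with black lines between groups) in each of the 7 mice (columns), with colours that end at 0.3 in either direction. Pfkl is the row in which the 3 knockouts all lie above the 4 wild types, and wild type 1 is mostly below and wild type 2 mostly above the pool.

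The 3 upstream stretches show the genes on which the description turns most, the phosphofructokinase gene Pfkl and the pair of gluconeogenic genes Pck1 and G6pc that had the largest differences toward higher values. Each is the 250 bases before the RefSeq start in GRCm38.p6, 5′ to 3′ on the gene's strand, at chr10:78009808-78010057 (minus strand) for Pfkl, chr2:173152823-173153072 (plus strand) for Pck1 and chr11:101367466-101367715 (plus strand) for G6pc. Capitals mark matches to the motifs searched on both strands, TGACGT (the core of a cAMP response element), CACGTG (an E-box), TGTTTAC (a forkhead site) and CCAAT.
Pfkl: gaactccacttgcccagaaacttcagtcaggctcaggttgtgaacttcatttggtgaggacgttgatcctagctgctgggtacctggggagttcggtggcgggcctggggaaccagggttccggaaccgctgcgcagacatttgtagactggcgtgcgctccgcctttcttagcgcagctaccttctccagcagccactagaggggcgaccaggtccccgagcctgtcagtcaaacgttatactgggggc
Pck1: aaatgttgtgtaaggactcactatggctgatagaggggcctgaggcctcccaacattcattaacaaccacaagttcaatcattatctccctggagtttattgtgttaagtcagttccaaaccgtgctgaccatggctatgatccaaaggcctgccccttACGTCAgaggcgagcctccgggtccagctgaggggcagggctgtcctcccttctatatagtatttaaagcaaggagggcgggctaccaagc
G6pc: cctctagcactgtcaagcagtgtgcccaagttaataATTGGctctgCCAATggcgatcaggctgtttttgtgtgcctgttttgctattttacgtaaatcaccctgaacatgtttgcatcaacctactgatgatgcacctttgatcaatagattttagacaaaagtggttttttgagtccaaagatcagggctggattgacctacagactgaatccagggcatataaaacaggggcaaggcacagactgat
Pck1 held 1 cAMP response element core, from 91 to 86 bases before the start, on the opposite strand to that in which the motif is spelled. Such a core stood in 6.47% of 32851 upstream windows, and among the measured genes also in windows of Ldha and Slc37a4. G6pc held 2 CCAAT matches, a motif of 33.8% of windows, and the Pfkl window held none of the searched motifs. Of the 32 measured genes 29 had upstream windows, 42 in all, and E-boxes stood in 5 of these windows (11.9%), those of Khk, Ldha, Pcx, Pfkm and Ppp1r3c, and in 6.02% of all windows. TGTTTAC stood in 0 of the 42 windows and in 3.17% of all windows. The TGACGT core stood in 9.52% of the 42 windows and CCAAT in 40.5%. The median GC content was 58.2% in the 42 windows and 52.4% in all windows, and its part in these shares was not tested. The matches are letters in a window and were not tied to any value.

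Phosphofructokinase commits sugar to glycolysis, and Pfkl, Pfkm and Pfkp encode its liver, muscle and platelet forms. Pfkl read -0.0326, -0.0209, -0.0059 and 0.0348 in wild types 1 to 4, and 0.111, 0.133 and 0.0889 in knockouts 2 to 4. The lowest knockout lay 0.0541 above the highest wild type, and each knockout was above the pool. The mean was 0.111 ± 0.0221 (SD, n = 3) in the knockouts and -0.00615 ± 0.0294 (SD, n = 4) in the wild types. The difference was 0.117 ± 0.0222 (SE), with a 95% interval from 0.0656 to 0.169, which is 1.31-fold (1.16 to 1.48) in base 10 and 1.08-fold if the values were in base 2. Its unadjusted p of 0.000875 was the smallest of the 32 genes, and it did not pass over all rows (limma, adjusted p = 0.884). With any 1 mouse left out the difference stayed between 0.106 and 0.131.

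The other forms of the enzyme did not separate the genotypes. Pfkm read -0.0191, 0.0021, 0.106 and -0.0681 in the wild types and -0.0592, 0.109 and -0.0025 in the knockouts, a difference of 0.0106 ± 0.0507 (SE). Pfkp read between -0.150 and -0.0503 in the wild types and -0.113, -0.0887 and 0.110 in knockouts 2, 3 and 4, so that 1 knockout stood above all other mice. Its difference of 0.0576 turned to -0.0128 without knockout 4. That mouse was also the highest in Pkm, the pyruvate kinase form outside hepatocytes, at 0.0489 against -0.0736 to -0.009 in the other 6 mice. Macrophage and Kupffer cell markers moved with it: the mean of 12 such genes was 0.122 in knockout 4, -0.122 and -0.174 in knockouts 2 and 3, and -0.236 to -0.0687 in the wild types, and 12 of 12 had a higher mean in the knockouts. The list means of neutrophil, endothelial and stellate cell markers were also highest in knockout 4, at 0.0521, 0.0495 and 0.0390. The part of these cells in Pfkp and Pkm was not tested, and in bulk liver fewer cells of a type and less RNA per cell cannot be told apart.

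**Figure D2:**
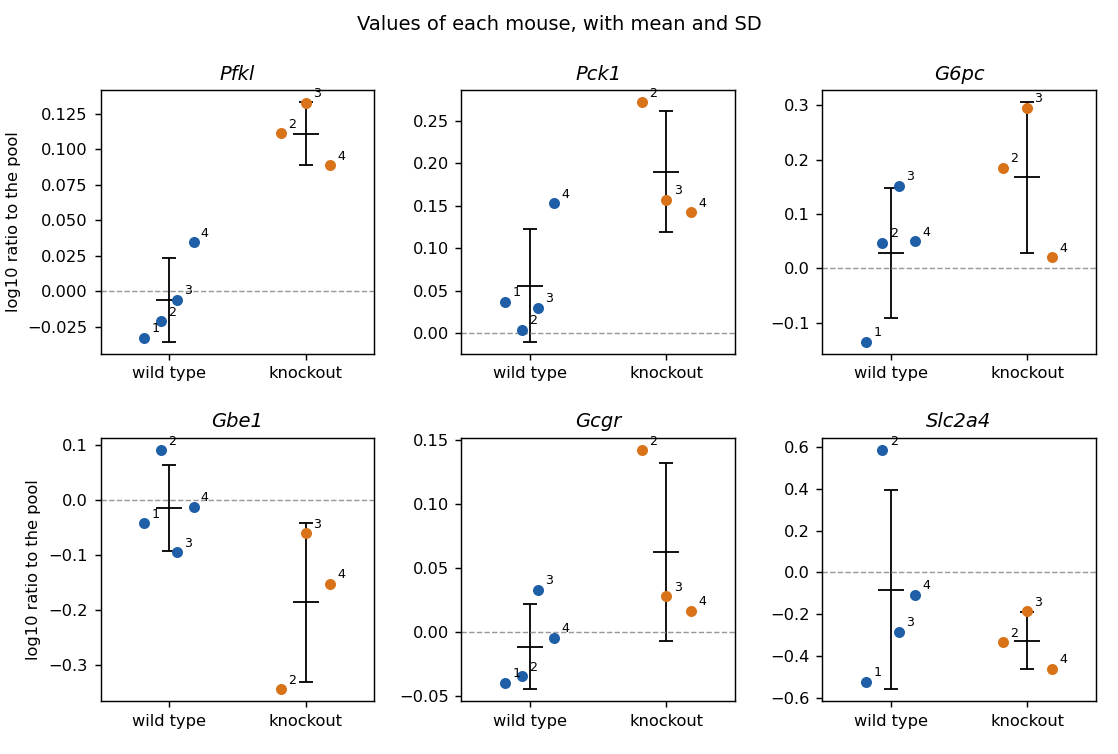
Log10 ratio to the pool (vertical axes, which differ between panels) of 6 genes in each mouse, blue for wild type and orange for knockout, with mouse numbers, the mean and the SD in black. Pfkl shows no overlap between the groups, Pck1 and Gcgr overlap through wild type 4 and wild type 3, and Slc2a4 spans -0.524 to 0.587 within the wild types.

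In the shared glycolytic steps, 8 of the 10 listed enzymes were measured, 5 with a higher and 3 with a lower knockout mean, and 0 passed the test by limma at an adjusted or an unadjusted p under 0.05. Pklr, the pyruvate kinase of hepatocytes at the last one-way step, read -0.0163, 0.0281, 0.0016 and 0.0412 in wild types 1 to 4 and 0.0787, 0.0492 and 0.0223 in knockouts 2 to 4. All 3 knockouts were above the pool, and the lowest of them lay within the wild-type range. The difference was 0.0364 ± 0.0223 (SE), with an interval from -0.0154 to 0.0882. Aldoa, an aldolase, read 0.183 in knockout 2 and -0.110 to 0.0824 in the other mice, and both of its probes gave nearly the same values. Pgk1, the phosphoglycerate kinase, read -0.217 in knockout 2, the lowest of the 7, and its difference of -0.0804 shrank to -0.0218 without that mouse.

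Gapdh, often used as a reference gene, had the narrowest interval of the 8 measured glycolytic enzymes. It read -0.0262, 0.0213, 0.0043 and -0.0230 in wild types 1 to 4 and 0.0070, 0.0146 and 0.0044 in knockouts 2 to 4. The knockouts lay inside the wild-type range, and the difference was 0.0145 ± 0.0185 (SE), with an interval from -0.0285 to 0.0575. Its 2 probes differed by genotype by -0.000458 and 0.0295, and the mouse genome holds many near-identical Gapdh pseudogenes, so the source of each signal is uncertain. Tpi1 and Pgam1, the triose phosphate isomerase and a phosphoglycerate mutase, differed by -0.0403 and -0.0377, and by -0.00665 and -0.0144 without wild type 2. The 2 probes of Tpi1 gave -0.00724 and -0.0734. Ldha, the lactate dehydrogenase subunit A, differed by 0.0213. Of its 3 probes 2 moved together between mice, at -0.288 and -0.225 in wild type 2 and at 0.0958 and 0.0708 in wild type 1. The third probe read 0.0028 and 0.0195 in these mice and lay between -0.0112 and 0.0472 in all mice.

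The 6 genes of gluconeogenesis were all measured, 4 with a higher and 2 with a lower knockout mean, and 0 passed over all rows. Pck1 encodes the cytosolic PEP carboxykinase, the classic hormone-controlled gene of the route. It read 0.0368, 0.004, 0.0299 and 0.153 in wild types 1 to 4 and 0.271, 0.157 and 0.142 in knockouts 2 to 4. The knockouts lay above 3 wild types, while wild type 4 fell between knockouts 3 and 4. The mean was 0.190 ± 0.0708 (SD, n = 3) against 0.0558 ± 0.0660 (SD, n = 4). The difference of 0.134 ± 0.0446 (SE), or 1.36-fold with an interval from 1.07 to 1.73, had an unadjusted p of 0.0178 and did not pass (limma, adjusted p = 0.884). Without knockout 2 it was 0.0936 (limma, unadjusted p = 0.0626).

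G6pc, the catalytic subunit of glucose-6-phosphatase that frees glucose for export, had the largest positive difference and a wide spread. It read -0.135, 0.0475, 0.152 and 0.0502 in wild types 1 to 4 and 0.185, 0.295 and 0.021 in knockouts 2 to 4. Knockouts 2 and 3 were above all wild types, and knockout 4 was below 3 of them. The difference was 0.138 ± 0.0801 (SE), with an interval from -0.0479 to 0.325. It was 0.211 without knockout 4 (limma, unadjusted p = 0.0267) and 0.0744 without knockout 3. Slc37a4, the carrier that brings glucose-6-phosphate to that enzyme, read 0.209, 0.208 and -0.124 in knockouts 2 to 4, so that knockout 4 was the lowest of the 3, as in G6pc, and here the lowest of all 7 mice. The wild types of Slc37a4 ran from -0.0882 to 0.262, and the difference of 0.0388 ± 0.108 turned to -0.0168 without knockout 2.

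The remaining 3 gluconeogenic enzymes were not listed at an unadjusted p under 0.05 either (limma). Fbp1, the fructose bisphosphatase that opposes phosphofructokinase, read -0.0479, 0.0744, -0.0349 and 0.0471 in the wild types and -0.110, -0.0144 and -0.0437 in the knockouts. All 3 knockouts of Fbp1 lay below the pool, and the difference was -0.0658 ± 0.0377 (SE), opposite in sign to those of Pfkl, Pck1 and G6pc, and -0.0387 without knockout 2. Pcx, the pyruvate carboxylase, differed by -0.0235 and turned to 0.0144 without knockout 4. Pck2, the mitochondrial PEP carboxykinase, was almost equal in the 3 knockouts, at 0.0202, 0.0151 and 0.0163, and ran from -0.0586 to 0.0632 in the wild types.

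**Figure D3:**
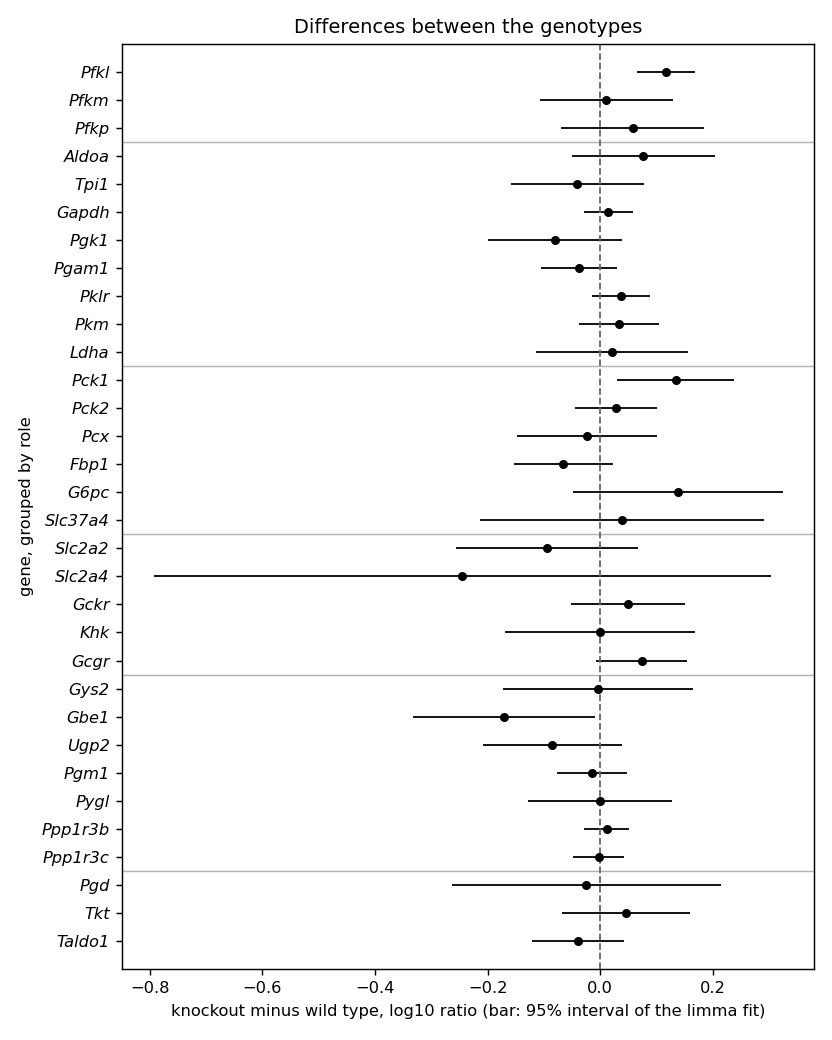
Difference between the genotypes, knockout minus wild type on the log10 scale, for the 32 genes in order of role, with 95% intervals of the limma fit. The intervals of Pfkl, Pck1 and Gbe1 lie clear of 0 before adjustment, and that of Slc2a4 is the widest, from -0.793 to 0.304.

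Genes of sugar entry and sensing were split, 2 with a higher and 3 with a lower knockout mean. Slc2a2, the main glucose transporter of hepatocytes (GLUT2), read -0.101, 0.166, -0.027 and -0.0253 in the wild types and -0.147, 0.0265 and -0.155 in the knockouts, a difference of -0.0951 ± 0.0694 (SE). Without wild type 2 the difference of Slc2a2 was -0.0409, and with array weights it was -0.00816. Gckr, a regulatory protein of hepatic sugar use, read -0.047, 0.106, 0.0036 and -0.0115 in the wild types and 0.137, 0.0383 and 0.0099 in the knockouts. Its difference was 0.0492 ± 0.0435 (SE), and 0.0114 without knockout 2. Khk, the fructose kinase, had group means of -0.0046 and -0.00477. Gcgr, the glucagon receptor, read -0.0394, -0.0344, 0.0329 and -0.0046 in the wild types and 0.142, 0.028 and 0.0167 in the knockouts. Wild type 3 alone reached into the knockout range of Gcgr, and the difference was 0.0736 ± 0.0348 (SE; limma, unadjusted p = 0.0689, adjusted p = 0.884). It was 0.0337 without knockout 2 (limma, unadjusted p = 0.237), and the unadjusted p was under 0.05 without wild type 3 (0.0488) or knockout 4 (0.0383).

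Slc2a4, the insulin-responsive transporter GLUT4 of muscle and fat, varied far more than any other of the 32 genes. It read -0.524, 0.587, -0.285 and -0.108 in wild types 1 to 4, and -0.335, -0.186 and -0.461 in knockouts 2 to 4. Wild type 2 was thus 12.9-fold above wild type 1, and 6 of 7 mice lay below the pool. The wild-type SD of 0.478 exceeded that of nearly all rows, at percentile 99.98. The genotypes differed by -0.245 ± 0.236 (SE), and by -0.0215 without wild type 2. Skeletal muscle markers averaged -0.0237 in wild type 1 and 0.0132 in wild type 2 over 4 genes, and adipocyte markers 0.0091 and -0.0422 over 3 genes. The part of either tissue in the spread of Slc2a4 was not tested.

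Of the 7 glycogen genes, 2 had a higher and 5 a lower knockout mean. Gbe1, the glycogen branching enzyme, read -0.0419, 0.0911, -0.0948 and -0.0118 in wild types 1 to 4 and -0.344, -0.0606 and -0.152 in knockouts 2 to 4. Knockouts 2 and 4 lay below all wild types, and knockout 3 lay above wild type 3. The difference was -0.171 ± 0.0695 (SE), or 1.48-fold lower with an interval from 1.02 to 2.15, at an unadjusted p of 0.0406 (limma, adjusted p = 0.884). Without knockout 2, whose array had the widest spread, it was -0.0920 (limma, unadjusted p = 0.128), and the unadjusted p was also above 0.05 without wild type 1, 2 or 4 or knockout 4 (limma, 0.0563 to 0.0979). Ugp2, which makes the UDP-glucose that glycogen is built from, read -0.214, -0.0451 and -0.0226 in the knockouts and -0.0815 to 0.0491 in the wild types, and its difference of -0.0849 was -0.0248 without knockout 2.

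Gys2, the glycogen synthase of liver, showed no shift between the genotypes within a wide interval. It read -0.119, -0.0188, 0.0984 and 0.160 in wild types 1 to 4 and 0.110, 0.0539 and -0.0832 in knockouts 2 to 4, so that the knockouts lay inside the wild-type range. The difference was -0.00328 ± 0.0726 (SE), with an interval from -0.172 to 0.166. Pygl, the liver glycogen phosphorylase, had a mean of 0.0251 in both groups, with an interval of the difference from -0.128 to 0.128. Ppp1r3b and Ppp1r3c, which bring protein phosphatase 1 to glycogen, had narrow spreads, and all their values lay between -0.0242 and 0.0353. Their intervals ran from -0.0285 to 0.0519 and from -0.0483 to 0.0427. Pgm1, the phosphoglucomutase, differed by -0.0147.

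In the pentose phosphate pathway, which supplies NADPH and ribose, 3 of 4 genes were measured. Pgd, the phosphogluconate dehydrogenase of the oxidative branch, read -0.197, 0.284, 0.0252 and -0.102 in the wild types and 0.018, -0.0154 and -0.0675 in the knockouts. Wild type 2 was 3.03-fold above wild type 1, and the knockouts lay between them. Tkt, the transketolase, differed by 0.0466 ± 0.0489 (SE), and Taldo1, the transaldolase, by -0.0397 ± 0.0351 (SE). The difference of Tkt was 0.00608 without knockout 2, and that of Taldo1 was -0.0220 without wild type 2.

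The spread among the wild-type mice was larger in these genes than in the table as a whole. The median wild-type SD was 0.0658 over the 32 genes and 0.0330 over all rows, and the knockout SDs were 0.0700 and 0.0328. A wide spread was not particular to these genes. Over the pathway and marker lists the median wild-type SD ran from 0.0150 for pancreas to 0.0985 for bile duct markers. It was 0.0843 for hepatocyte markers and 0.0665 for genes of hormonal and transcriptional control. Wild types 1 and 2 stood at opposite ends, a pair described after the values were seen. In wild type 1, 5 of 32 genes were above the pool, with a median of -0.046, and in wild type 2, 24 of 32, with a median of 0.0528. Wild type 2 was above wild type 1 in 28 of 32 genes (87.5%), against 47.5% of all rows. The 4 exceptions were Ldha, Pck1, Pgm1 and Ppp1r3c. Wild type 2 was the highest of all 7 mice in 14 of the 32 genes and in 14.8% of all rows, and wild type 1 the lowest in 13 genes and in 16.8% of all rows. Hepatocyte markers differed in the same direction, with a list mean of -0.0472 in wild type 1 and 0.0576 in wild type 2 (1 of the 12, Tat, also stands in the list of control genes below), though their lowest mean was that of wild type 3, at -0.0545, where the median of the 32 genes was 0.0026. Bile duct markers differed more, at -0.0632 and 0.148. The part of either in the pattern was not tested. Medians of the knockouts were 0.0140, 0.00853 and -0.0126 for mice 2, 3 and 4, inside the span of the wild types. In 9 of 32 genes (28.1%) all 3 knockouts lay within the range of the wild types, against 24.2% of all rows.

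**Figure D4:**
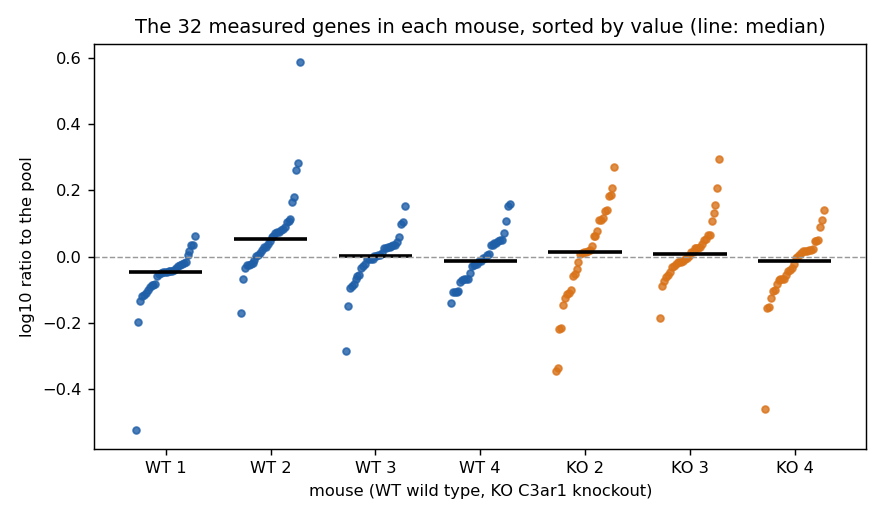
Log10 ratio to the pool of the 32 measured genes in each mouse, sorted by value within the mouse, with a black line at the median (blue wild type, orange knockout). The medians of wild types 1 and 2, at -0.046 and 0.0528, enclose those of the other 5 mice.

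Each group was also set against the pool in the same fit. Both contrasts share their mice with the comparison of the genotypes, so their values are given side by side only. The pool is common to all arrays, so its own error is not part of the SE or p of these contrasts. For the knockouts, 0 of 32 genes were called and 0.0315% of all rows. At an unadjusted p under 0.05 limma listed 5 genes above the pool (Pfkl, Pklr, Pck1, G6pc and Gcgr), where all rows gave 9.68%, and 3 below it (Pgk1, Gbe1 and Ugp2), where all rows gave 8.03%. The smallest was Pfkl, at 0.111 ± 0.0168 (SE; limma, unadjusted p = 0.000207, adjusted p = 0.187). Pck1 stood at 0.190 ± 0.0337 (SE; limma, adjusted p = 0.237). For the wild types, 0 genes and 0 of all rows were called, and only Pfkp, at -0.0882 ± 0.0356 (SE), was listed at that level (limma, adjusted p = 0.992), where all rows gave 1.58% below the pool.

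The 6 further lists took in the neighbouring genes, and 0 of their 101 measured entries passed the test. For the counts and medians below, all rows had a higher knockout mean in 57.2% and a median difference of 0.00558. Of the hexokinases, other sugar transporters and sugar-entry enzymes 12 were measured, 7 higher and 5 lower, with a median difference of 0.00384, and the smallest p belonged to the fructose transporter gene Slc2a5 (-0.120 ± 0.0767, SE). Of 16 other glycolytic and gluconeogenic enzymes 13 were higher and 3 lower, with a median of 0.0168, led by G6pc3, a widely expressed glucose-6-phosphatase (0.0362 ± 0.0188). Genes of pyruvate use and gluconeogenic precursors were higher in 5 and lower in 13, with a median of -0.0187. In that list Mpc1, a subunit of the mitochondrial pyruvate carrier, differed by -0.124 ± 0.0617, and Dld, a subunit of pyruvate dehydrogenase and related complexes, by -0.111 ± 0.0608. In both genes knockout 2 was the lowest of the 7 mice.

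Other glycogen genes were higher in 9 and lower in 10, with a median of -0.00153. Epm2a, the glycogen phosphatase laforin, differed by -0.0553 ± 0.0221 (SE; limma, unadjusted p = 0.0384), and Gyg, the glycogenin that primes glycogen, by -0.0929 ± 0.0530. Other genes of the pentose phosphate pathway and NADPH supply were higher in 5 and lower in 6, with a median of -0.00682. There the 3 knockouts of Tktl1, a transketolase-like gene, lay above all wild types, at 0.0524, 0.040 and 0.0278 against -0.0162 to 0.0075 (limma, unadjusted p = 0.0452), and H6pd, which feeds NADPH to the endoplasmic reticulum, differed by 0.0900 ± 0.0461. Of the 101 entries only Epm2a and Tktl1 were listed at an unadjusted p under 0.05 (limma), where all rows gave 4.55%. Only Tktl1 had no overlap between the groups, where all rows gave 5.27%. Genes of hormonal and transcriptional control were higher in 18 and lower in 7, with a median of 0.0328. Mlxipl, the sugar-responsive factor ChREBP, read -0.173, 0.0322, 0.0922 and -0.0187 in the wild types and 0.145, 0.009 and 0.220 in the knockouts, a difference of 0.141 ± 0.0703 (SE). Prkaa2, a catalytic subunit of the energy sensor AMPK, differed by -0.0693 ± 0.0343.

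Markers of other cell types were read as list means beside these results, and 0 of their genes passed. Over all rows the knockout mean was the higher in 57.2%. Endothelial markers had a higher knockout mean in 9 of 10 genes, with list means of -0.0387 to 0.0133 in the wild types and -0.00666 to 0.0495 in the knockouts. Markers of stellate cells and fibroblasts had a higher knockout mean in 7 of 9 genes, from -0.0845 to -0.0161 and from -0.0147 to 0.0390. Lymphocyte markers were higher in 7 of 8, from -0.0217 to 0.0299 and from 0.00323 to 0.0360. Neutrophil markers ran from -0.0467 to -0.00667 and from -0.0660 to 0.0521, bile duct markers from -0.0632 to 0.148 and from -0.0307 to 0.0262, and red blood cell markers from -0.0612 to 0.0483 and from -0.105 to -0.0159. Muscle, adipocyte and pancreas markers lay between -0.0422 and 0.0518 in all mice. The stellate list means did not overlap between the groups: the highest wild type stood at -0.0161 and the lowest knockout at -0.0147. In that list 2 of the 9 genes were lower in the knockouts. Among single markers, 3 of 10 endothelial and 2 of 8 lymphocyte genes were higher in the knockouts without overlap, where all rows gave 2.71%. So were 1 hepatocyte, 1 neutrophil and 1 pancreas marker, and 0 of the stellate markers. The part of any of these cells in the difference of Pfkl was not tested.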

How the data were processed

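The authors deposited a table of log ratios for 23574 probes on 7 arrays, with no value missing, read here as log10. Per the labels' protocols, RNA was extracted on silica columns with DNase, amplified and labelled through aminoallyl coupling. A dye swap is mentioned in the series' design text, but its place in the columns, the software, normalization and treatment of dyes are not given in the sources used here. Probe names came from the platform's annotation and were updated through Entrez numbers (17724) or accession (21) against RefSeq GRCm38.p6, while 79 kept their symbol, 50 had several symbols and 5700 had none. Probes of a gene were averaged, and unnamed probes stayed as rows of their own. In each of 22212 rows, limma 3.58.1 (R 4.3.3, lmFit and eBayes, two-sided) tested knockout minus wild type and each group against the pool, with Benjamini-Hochberg adjustment over all rows and a threshold of 0.05. The fit was tested on simulated data. Errors are the SD between mice or the SE of the fit, and intervals are at 95%. No 2 arrays shared more than 0.119% of values, so no column is a copy of another. This check cannot tell 2 arrays of the same mouse from arrays of different mice, and all 7 were counted as separate mice on the numbering of the titles.

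The members and lists were chosen with earlier results of these data known. Given in full, by the rule, were genes at an unadjusted p under 0.05 or without overlap, with Pck1, G6pc, Pklr, Gckr, Gys2, G6pdx and Gapdh as fixed picks, and up to 2 genes of smallest p in each pathway list. The mouse-by-mouse values of other genes were picked after they were seen. The alternatives were 3 other scalings, a filter on variation, single probes, robust and array-weighted fits, a replicate block, and each mouse left out.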

Additional observations from a re-analysis of the deposited data

Results flagged for a closer look

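The mean of the endothelial markers had 1 wild-type mouse far from the others: wild type 4 stood at 0.0133, and the other 3 lay between -0.0387 and -0.0305. Its gap to the nearest of them was 0.843 of the group's range, above Dixon's 95% limit for 4 samples. Of the 32 genes, none had a wild-type mouse past that limit, and 56 sets of wild-type values were examined, of which chance would flag about 1 in 20. In knockout groups of 3 this check was not made.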

How the results depend on the processing

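In all 15 alternatives 0 of the 32 genes were called, and 20 of 32 kept the sign of their difference in every alternative in which they were fitted, 12 higher and 8 lower. Pfkl kept an unadjusted p under 0.05 in every alternative (limma, 0.000274 to 0.0158), with differences of 0.106 to 0.131. Its adjusted p ranged from 0.338 with array weights to 0.9997. Pck1 was above that level after quantile normalization (difference 0.0962, limma, unadjusted p = 0.0625) and with the block (0.128, unadjusted p = 0.0691), as it was without knockout 2. Gbe1 was above it with array weights (-0.0796, limma, unadjusted p = 0.196) and with the block (-0.180, unadjusted p = 0.0954). G6pc was below it with array weights (0.212, limma, unadjusted p = 0.0289). Signs turned with array weights for Tpi1 (0.00699), Khk (0.0302), Gys2 (0.00443) and Pgd (0.00788), after quantile normalization for Khk (0.00817), and for Pygl after median centring (-0.00466) and with the replicate block (-0.0473); the cause was not tested. With 1 mouse left out, signs turned in 11 genes, over ranges of -0.0360 to 0.0480 for Pfkm, -0.0128 to 0.0990 for Pfkp, -0.0194 to 0.0580 for Ldha, -0.0783 to 0.0144 for Pcx, -0.0168 to 0.149 for Slc37a4, -0.0341 to 0.0611 for Khk, -0.0530 to 0.0517 for Gys2, -0.0304 to 0.0104 for Pgm1, -0.0473 to 0.0318 for Pygl, -0.0141 to 0.0057 for Ppp1r3c and -0.0908 to 0.0696 for Pgd. The median difference of the 32 genes ran from -0.0109 without knockout 3 to 0.0195 without wild type 2.

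Mice of the same replicate number did not deviate alike from their group means: the deviations correlated at -0.137, -0.205 and -0.154 for numbers 2, 3 and 4. Mice of unlike numbers were not compared in this way, so these values cannot settle whether the mice were paired. With the replicate block 0 rows were called between the genotypes, against 1, and no gene of the 32 changed its call; at an unadjusted p under 0.05 limma then listed 1 of the 32, Pfkl, and 2.35% of all rows. The count of 1 was also 0 after scale normalization and 4 with the less variable rows left out, where 27 of the 32 genes remained, and ran from 0 to 3 with 1 mouse left out. Against the pool, the wild types gave 0 rows, 1 with the less variable rows left out and 0 to 1 with a mouse left out. The knockouts gave 7, 1 after quantile and 0 after scale normalization, 52 with the less variable rows left out, 57 with array weights and 0 to 8 with a mouse left out. Signal over background and nutritional state were not analysed here, so a gene near background in liver cannot be told from one that did not move.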

Other observations

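Among the hormone-responsive genes of the control list, Igfbp1 and Tat had wild-type SDs of 0.353 and 0.288, above those of all 32 genes except Slc2a4. Igfbp1, an insulin-repressed binding protein of insulin-like growth factors, read -0.194, 0.413, -0.399 and 0.0876 in wild types 1 to 4 and 0.146, 0.314 and -0.032 in knockouts 2 to 4. Tat, the glucocorticoid-induced tyrosine aminotransferase, read -0.212, 0.398, -0.186 and 0.122 in the wild types and 0.249, 0.407 and 0.0375 in the knockouts. Ppargc1a, the coactivator PGC-1alpha, read -0.0925, 0.186, -0.0951 and 0.167 against 0.223, 0.184 and -0.044. In these 3 genes wild types 1 and 3 and knockout 4 were the lowest of their groups, as they were in Slc37a4. Me1, the malic enzyme that makes NADPH, read -0.142, 0.287, 0.0351 and -0.0963 in the wild types and -0.0356, 0.0134 and -0.256 in the knockouts. Got1, the cytosolic aspartate aminotransferase, read 0.421 in wild type 2 and -0.298 to 0.123 in the other mice. These 5 genes were chosen after their values were seen, and none passed the test between the genotypes (limma, smallest adjusted p = 0.884).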
